A study of Drosophila mettleri with 18 samples.

Results

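The 80 assembled larval transcripts described here moved in opposite directions on saguaro in 2 populations of the cactus fly Drosophila mettleri: relative to lab food they were lower on saguaro in every Santa Catalina Island strain and higher on saguaro in every Sonoran strain. They were chosen by that pattern, that is, selected on the measured lab food, saguaro and mean prickly pear levels, from 15947 features in the deposited count table. Counts were divided by a factor per library, 8 was added and log2 was taken, and d is this level on saguaro minus that on lab food within a strain. A feature qualified when d was below 0 in the 3 Catalina strains and above 0 in the 3 Sonoran strains, when it was not among the 100 features with the highest mean level, and when its mean level on prickly pear lay within 0.8 of its mean over the other 2 foods. Of 1046 features with the opposite signs, 445 passed the prickly pear limit, and the 80 with the highest score were kept, where the score is the lowest Sonoran d minus the highest Catalina d. The lab food and saguaro values are therefore a description of what chose these features and are not tested.

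Each library was RNA from 10 pooled whole larvae aged 8 days, and each strain was reared on Drosophila 4-24 Instant food (lab food), on coastal prickly pear cactus and on saguaro cactus. The Catalina strains were C-M, C-7 and C-9 and those of the Sonoran population T-22, T-27 and T-28, which gave 6 groups of 3 libraries, numbered as replicates 1 to 3 in that order. A strain contributed a single pool on each food, so the spread within a group is that between strains, pools and libraries together. The labels give no genotype, inbreeding history or sex of the larvae.

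Drosophila mettleri is a desert fly whose larvae develop in soil soaked with the juice of rotting cacti. Columnar cacti such as saguaro carry alkaloids that are toxic to many other Drosophila, and insects commonly meet such compounds with cytochrome P450 enzymes, glutathione S-transferases and UDP-glycosyltransferases. Sonoran flies live among columnar cacti, while on Santa Catalina Island prickly pear is the host. The count table pairs no feature with a gene name or a sequence, so no feature here could be placed in such a family and features are called by their assembly names. Because whole larvae were used, fewer cells of a type and less RNA per cell cannot be told apart.

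Library totals ran from 6769906 to 16115982 counts. The Catalina saguaro library of strain C-M stood apart: 25.5% of all features had 0 counts there, against 7.66% to 13.7% in the other 17 libraries, and the 100 most abundant features held 56.2% of its counts, against 35.0% to 51.6%. The main summaries that rest on it are also given without it, an alternative chosen after seeing the data.

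The 80 features were scarce in these libraries. Their mean count per library ran from 5.83 to 405 with a median of 19.9, against a median of 121 over the 12514 features that passed a filter on low counts, which all 80 passed. Of the 80, 66 averaged under 5 CPM (counts relative to library size, scaled with trimmed mean of M-values, or TMM, factors) and 14 averaged 5 to 50 CPM, and 0 lay above that. Over all tested features, 39.2% averaged under 5 CPM. Transcript lengths are not in the table, so these are depths of coverage and not abundances per length.

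**Figure D1:**
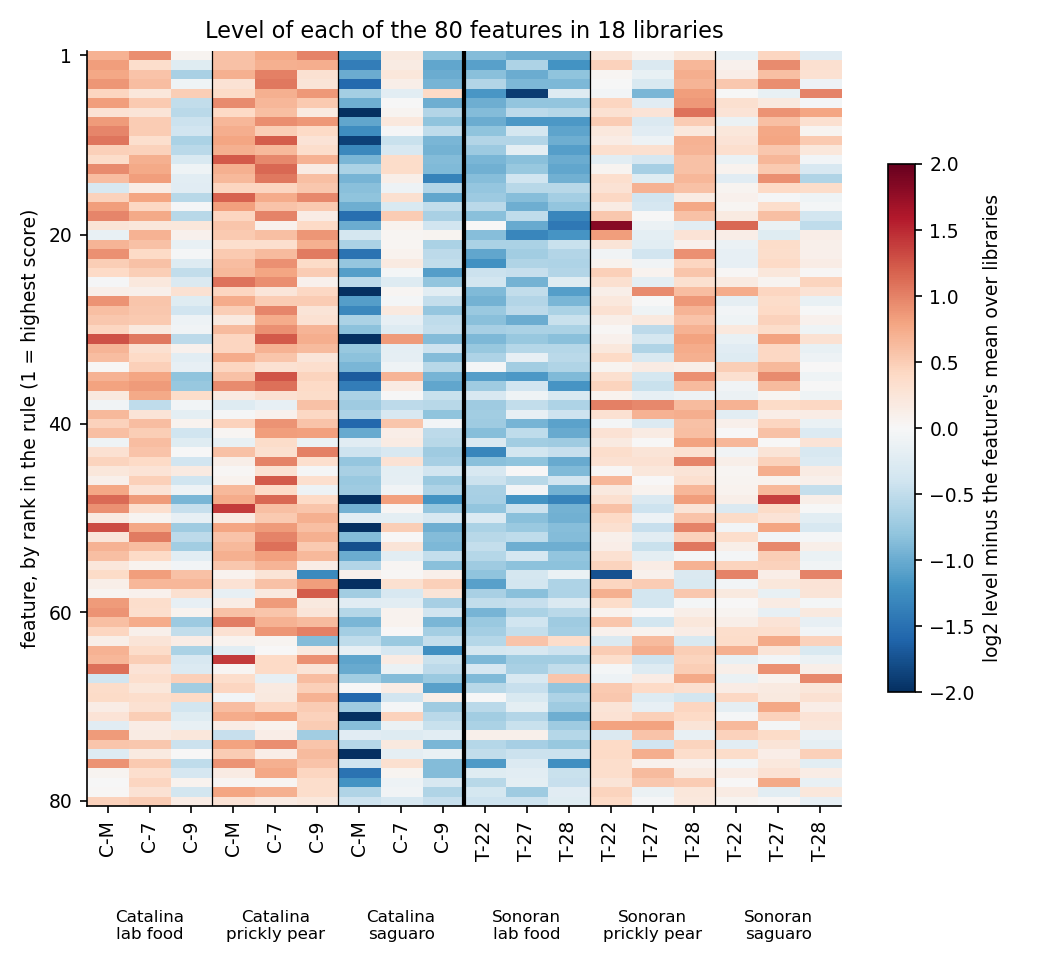
Level of each of the 80 features (rows, by rank in the rule) in the 18 libraries (columns, by population, food and strain), as log2 of the scaled count plus 8 minus the feature's mean, where values beyond 2 in either direction share the end colours. The Sonoran lab food columns and the C-M and C-9 saguaro columns are mostly blue, with 74 to 79 features below their own mean, while C-7 on saguaro has 38. On lab food, C-9 has 60 features below their own mean, against 9 in C-M and 1 in C-7. The prickly pear columns are mostly red except that of T-27, where 47 features lie below their own mean.

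Summed over the 80 features, the level in Catalina larvae was 367, 377 and 243 CPM on lab food in C-M, C-7 and C-9 and 120, 276 and 172 CPM on saguaro. In Sonoran larvae it was 146, 180 and 162 CPM on lab food and 312, 362 and 323 CPM on saguaro, in T-22, T-27 and T-28. Within every strain the sum thus moved in the direction the rule asks, and in Catalina the saguaro library of C-7 exceeded the lab food library of C-9, while the Sonoran foods did not overlap. As group means, the sums were 329 ± 74.2 and 189 ± 79.2 CPM in Catalina and 163 ± 17.1 and 332 ± 26.6 CPM in Sonoran, on lab food and saguaro in that order (SD, n = 3). Without C-M the Catalina saguaro mean was 224 CPM. The 2 low groups, Catalina on saguaro and Sonoran on lab food, were the only groups in which any of the 80 had 0 counts. In the C-M saguaro library 30 of the 80 were at 0, which allows up to 0.322 CPM each in that library (3 counts, counting error only).

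**Figure D2:**
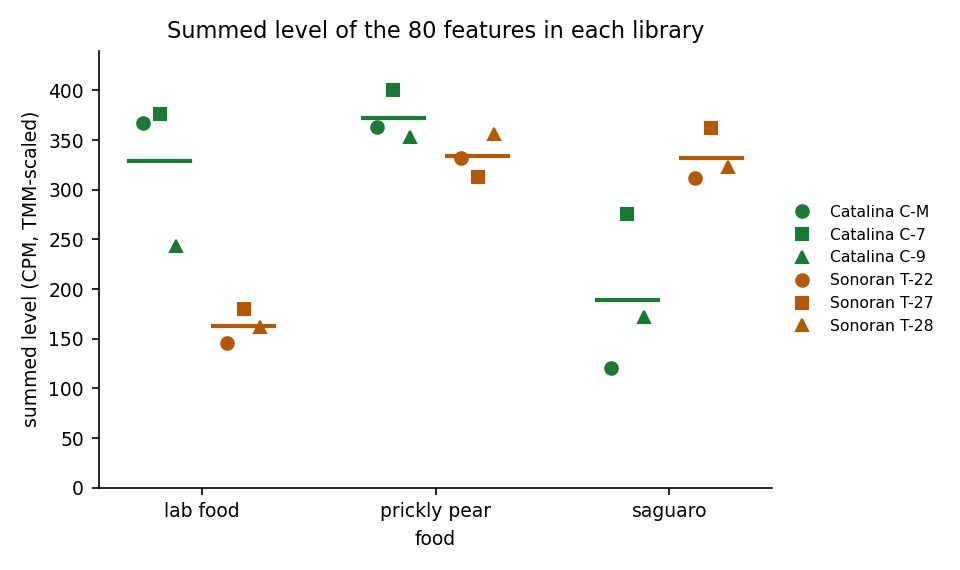
Summed level of the 80 features in each library (vertical axis, TMM-scaled CPM) by food, with a marker per strain and a bar at the mean of 3 strains. The sums of Catalina and Sonoran change places between lab food and saguaro, and on prickly pear all 6 libraries lie between 313 and 400 CPM.

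The fall in Catalina was uneven between strains. In C-M the median d over the 80 features was -1.44, ranging from -4.46 to -0.15. In C-7 it was -0.41 and in C-9 -0.38, with the features nearest to no change at -0.02 and -0.04. C-M had the lowest d of the 3 strains for 72 of the 80 features, and d was -1 or lower for 58 features in C-M, 2 in C-7 and 2 in C-9. The feature means over the 3 Catalina strains had a median of -0.78, which became -0.41 without C-M, beside -0.06 and -0.01 over all tested features.

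The rise in Sonoran was more even. Median d was 0.80 in T-22, 0.95 in T-27 and 0.76 in T-28, and the means over the 3 strains had a median of 0.83, beside 0.05 over all tested features. T-27, whose saguaro library was the smallest of all, had the highest d for 43 of the 80 features. d reached 1 or more for 22 features in T-22, 32 in T-27 and 20 in T-28. The mean Sonoran d exceeded the mean Catalina d by 0.90 to 2.82 per feature, with a median of 1.52, and without C-M by 0.79 to 1.92, with a median of 1.22. Because 8 is added before the log, d understates the change of features with few counts: with 1 added in place of 8, the median changes of the 80 were -1.49 in Catalina and 1.43 in Sonoran. At the edge of the choice, the 78th, 79th and 80th features had scores of 0.683, 0.682 and 0.679, and the first 3 left out had 0.673, 0.672 and 0.665, so the boundary cuts through a continuous series.

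**Figure D3:**
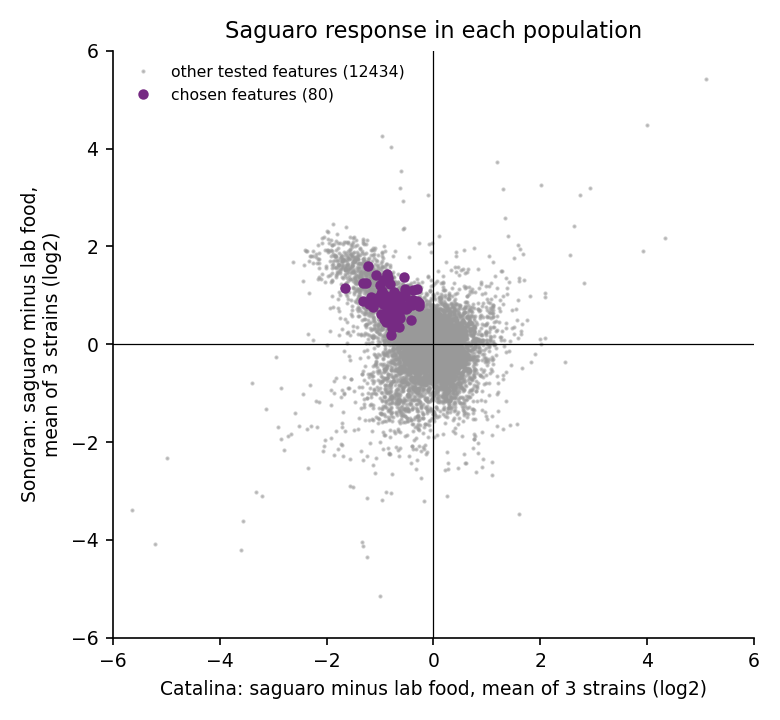
Mean d over 3 strains (log2 saguaro minus lab food) in Catalina (horizontal) against Sonoran (vertical) for the 80 chosen features in purple and the other 12434 tested features in grey. The chosen features occupy the upper left part, with Catalina means from -1.66 to -0.26 and Sonoran means from 0.19 to 1.59, and grey features also lie further out there.

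The 2 features with the highest scores, comp19806_c0 and comp36025_c0, are shown in counts because their depth is low. comp19806_c0 had 23, 32 and 10 counts on lab food and 0, 13 and 2 on saguaro in C-M, C-7 and C-9, and 2, 1 and 1 on lab food and 7, 8 and 7 on saguaro in T-22, T-27 and T-28. The Sonoran foods did not overlap, while in Catalina the saguaro count of C-7 exceeded the lab food count of C-9. On prickly pear it had 22, 29 and 47 counts in Catalina and 19, 12 and 15 in Sonoran, so it was well detected there in all 6 strains. In CPM it went from 1.52 ± 0.613 to 0.394 ± 0.541 in Catalina and from 0.110 ± 0.0348 to 0.852 ± 0.373 in Sonoran (SD, n = 3).

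comp36025_c0 had 32, 23 and 9 counts on lab food and 0, 16 and 2 on saguaro in Catalina, and 2, 5 and 1 on lab food and 12, 16 and 17 on saguaro in Sonoran. On prickly pear it had 27, 34 and 45 counts in Catalina and 30, 10 and 29 in Sonoran. As with comp19806_c0, C-7 kept more of the transcript on saguaro than C-M and C-9 did, and T-27 was the lowest Sonoran library on prickly pear.

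The largest mean falls in Catalina, those of comp37292_c1 and comp37370_c0, came mostly from C-M. comp37292_c1 was at 13.1, 11.2 and 3.40 CPM on lab food and 0, 10.0 and 2.57 CPM on saguaro in C-M, C-7 and C-9, which gave d of -4.46, -0.19 and -0.34. In Sonoran it was at 2.48, 2.80 and 2.61 CPM on lab food and 4.65, 9.45 and 6.71 CPM on saguaro, and on prickly pear at 6.86, 12.3 and 8.94 CPM in Catalina and 5.63, 4.06 and 9.44 CPM in Sonoran. C-M had 183 counts of it on lab food and 0 on saguaro, whereas C-7 and C-9 differed little between these foods. comp37370_c0 was at 9.64, 6.62 and 1.96 CPM on lab food and 0.322, 5.44 and 1.54 CPM on saguaro in Catalina, with d of -3.43, -0.29 and -0.26. It was at 2.11, 1.90 and 1.71 CPM on lab food and 3.51, 6.73 and 2.88 CPM on saguaro in Sonoran, and on prickly pear at 6.4, 6.67 and 5.79 CPM in Catalina and 4.79, 2.56 and 7.80 CPM in Sonoran. On both features the lab food level of C-9 was already near the Sonoran lab food levels.

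The largest mean rises in Sonoran were those of comp37523_c1 and comp33237_c0. comp37523_c1 was at 2.26, 1.36 and 1.17 CPM on lab food and 4.36, 11.1 and 4.45 CPM on saguaro in T-22, T-27 and T-28, with d of 0.78, 2.56 and 1.45. In Catalina it went from 9.21, 7.58 and 1.79 CPM to 0.322, 7.54 and 1.37 CPM, so its d in C-7 was only -0.04. On prickly pear it was at 6.67, 9 and 5.33 CPM in Catalina and 5.18, 3.23 and 7.46 CPM in Sonoran. comp33237_c0 was at 0.301, 0.271 and 0.451 CPM on lab food and 1.90, 3.20 and 1.31 CPM on saguaro in Sonoran, without overlap. In Catalina it was at 2.57, 2.83 and 0.510 CPM on lab food and 0, 2.64 and 0.428 CPM on saguaro, again with C-M setting most of the fall. On prickly pear it was at 2.29, 3.98 and 2.09 CPM in Catalina and 1.92, 0.978 and 3.15 CPM in Sonoran.

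The members with the most counts, comp39816_c0 and comp32025_c0, differed in which strains carried the pattern. comp39816_c0 was at 31.4, 37.3 and 22.2 CPM on lab food and 5.58, 37.3 and 18.2 CPM on saguaro in Catalina, a fall that lay almost wholly in C-M (d of -2.34, -0.04 and -0.29). In Sonoran it went from 16.3, 17.4 and 13.1 CPM to 26.4, 36.4 and 33.2 CPM, without overlap. comp32025_c0 fell in all 3 Catalina strains by similar amounts, from 29.4, 32.9 and 30.7 CPM to 18.4, 16.6 and 19.7 CPM, also without overlap. Its rise in Sonoran lay mostly in T-22, at 18.4, 41.5 and 35.7 CPM on lab food and 36.2, 46.8 and 39.4 CPM on saguaro (d of 0.94, 0.18 and 0.09). On prickly pear comp39816_c0 was at 42.7, 44.6 and 36.7 CPM in Catalina and 33.2, 38.6 and 35.0 CPM in Sonoran, and comp32025_c0 at 27.8, 27.1 and 14.7 CPM and at 22.9, 44.7 and 22 CPM.

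Between the populations, the pattern was a crossing: the Catalina mean level was the higher for 80 of 80 features on lab food and the lower for 80 of 80 on saguaro. On lab food the median difference, Catalina minus Sonoran, was 0.94 on the log2 scale used by the rule (0.05 to 1.5), and the 3 libraries of Catalina lay wholly above those of Sonoran for 51 features, against 11.8% of all tested features. On saguaro the median difference was -0.68 (-1.60 to -0.10), and the Sonoran libraries lay wholly above for 29 features, against 4.86% of all. Without the C-M saguaro library the median difference was -0.49 (-1.20 to 0.26), the Catalina mean was the lower for 77 of 80 and the count was 30, against 7.62% of all. With a library fewer, no overlap is a looser condition, so that count says nothing of stability. The lab food and saguaro libraries chose the features, so nothing is read from the counts.

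Prickly pear libraries entered the rule only through their mean over all 6 strains, so the difference between the populations on prickly pear is the comparison between groups that the rule left free. None of the 80 features was called there (edgeR quasi-likelihood test, Benjamini-Hochberg adjusted p below 0.05 over 12514 features), where 5 of all tested features (0.04%) were called. DESeq2 also called 0 of the 80, and 33 of all tested features. At an unadjusted p below 0.05 there were 2 of the 80, or 2.5%, against 3.16% of all. The log2 fold change of Catalina over Sonoran was above 0 for 60 of the 80 features, against 45.2% of all, with a median of 0.37 beside -0.03 over all features. Without the T-27 prickly pear library the median was 0.15 and 56 of 80 were above 0, against 50.6% of all. The share of all features above 0 depended on the scaling. With all libraries it was 56.5% with RLE size factors and 56.7% with DESeq2, where 63 of the 80 were above 0 in each. The Catalina libraries lay wholly above the Sonoran ones for 15 of the 80 (18.8%, against 6.7% of all) and wholly below for 2 (2.5%, against 7.02%). These shares of all features are not matched for level: 66 of the 80 averaged under 5 CPM, against 39.2% of all. Shares among features under 5 CPM are not given for this comparison, so whether the 80 differ from features as scarce was not tested. In simulated libraries the same test found 17% of true differences of log2 1 and 53% of true differences of log2 2. The changed features were drawn from all features that passed the filter, with a median mean count of 121 against 19.9 for the 80. The rates for features as scarce as the 80 were not measured, and the lack of calls is not read as equal levels.

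The members furthest apart on prickly pear were comp35313_c0 and comp23898_c0 with Catalina higher and comp38520_c1 and comp33694_c0 with Sonoran higher. comp38520_c1 was at 6.8, 7.25 and 13.2 CPM in Catalina and 18.4, 18.2 and 13.7 CPM in Sonoran on prickly pear, without overlap (log2 fold change -0.88, SE 0.24, adjusted p = 0.557, edgeR). C-9 lay close to T-28, and without the C-9 library the log2 fold change was -1.25 and the feature was called (adjusted p = 0.0467, edgeR), the only setting of 13 in which any of the 80 was. In that setting 11 of all tested features were called. Its other levels were 8.07, 5.85 and 8.33 CPM on lab food and 4.83, 5.91 and 5.74 CPM on saguaro in Catalina, and 5.04, 5.97 and 5.41 CPM and 14.7, 11.4 and 12.2 CPM in Sonoran. In these libraries its levels were higher in Sonoran than in Catalina larvae on each cactus, in all 3 strains, while the populations overlapped on lab food. The saguaro libraries helped to choose the feature, and its prickly pear difference was not called with all libraries.

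comp33694_c0 was at 2.29, 2.75 and 3.34 CPM in Catalina and 4.39, 5.34 and 4.24 CPM in Sonoran on prickly pear, also without overlap (log2 fold change -0.73, SE 0.40, adjusted p = 1.00, edgeR). comp35313_c0 was at 2.22, 1.46 and 1.90 CPM in Catalina and 1.13, 0.376 and 0.821 CPM in Sonoran (log2 fold change 1.23, SE 0.70, adjusted p = 1.00, edgeR). comp23898_c0 was at 0.588, 1.17 and 1.39 CPM in Catalina and 0.451, 0.451 and 0.479 CPM in Sonoran (log2 fold change 1.19, SE 0.69, adjusted p = 1.00, edgeR). Its counts were 9, 20 and 30 in Catalina and 8, 6 and 7 in Sonoran, so the nearest counts of the populations were 9 and 8. On these 3 features the libraries did not overlap, and the difference was within what the fit allows for 3 strains a side.

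The position of prickly pear among the foods differed between strains. The following values share the lab food and saguaro libraries with the rule and are a description. In Catalina, prickly pear was nearer to lab food than to saguaro for 77 of the 80 features (67.2% of all tested), and in Sonoran it was nearer to saguaro for 76 (76.2% of all), both by population means. The rule put lab food above saguaro in Catalina and below it in Sonoran. For the 80, both counts therefore say only that prickly pear lay above the midpoint of those foods. The shares of all features carry no such condition, so the distance from them is not read. By population means prickly pear lay above both other foods for 68 features in Catalina (47.8% of all) and 49 in Sonoran (46.8% of all), 44 of them in both populations, and below both for 2 in each (35.1% and 34.9% of all). The Sonoran strains differed here: prickly pear exceeded saguaro for 59 features in T-22 and 68 in T-28 but lay below it for 63 in T-27, with median differences of 0.21, 0.38 and -0.40. Against lab food, prickly pear was higher in all 3 Sonoran strains for 73 features (39.6% of all tested), and higher in all 3 Catalina strains for 24 (27.7% of all) and lower in all 3 for 3 (18.9% of all). Against saguaro it was higher in all 3 Catalina strains for 76 (30.4% of all), and in Sonoran higher in all 3 for 10 (21.5% of all) and lower in all 3 for 3 (22.9% of all). The choice of features low on lab food in Sonoran and low on saguaro in Catalina favours the counts of 73 and 76. Those counts are therefore not read against the shares of all features. The rule's limit kept the mean over both populations within 0.8 of the other foods, and 77 of the 80 lay on its upper side, with a median of 0.64.

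The same measure could be read in a strain the choice had not used. With the rule applied to 5 strains and 80 features chosen, the sixth strain moved in the direction of its population for 75 features when C-M was left out (56.4% of all tested features moved that way), 55 for C-7 (53.1% of all) and 41 for C-9 (48.4% of all). It did so for 69 features for T-22 (55.7% of all), 56 for T-27 (50.8% of all) and 70 for T-28 (55.2% of all). As shares of 80 these are 93.8%, 68.8%, 51.2%, 86.2%, 70.0% and 87.5%. C-9 therefore lay near the share of all features, and C-M, T-22 and T-28 lay furthest above it. Among all tested features under 5 CPM, the level class of 52 to 71 of each chosen set, the shares were 76.5%, 63.8%, 47.1%, 61.2%, 65.7% and 69.0% in the same order, so for C-7 and T-27 too the distance was small. The median d of the chosen features in the strain left out was -1.55, -0.15 and -0.04 in C-M, C-7 and C-9 and 0.49, 0.46 and 0.69 in T-22, T-27 and T-28. The count depended on the added constant: with 1 in place of 8 it was 45 for T-22 and 66, 46, 38, 49 and 54 for C-M, C-7, C-9, T-27 and T-28. The shares of all features and of those under 5 CPM are the same with either constant, which cannot change a sign. As shares of 80, T-22 then lay near its 55.7% of all features. C-7, T-22, T-27 and T-28 lay below the shares of features under 5 CPM, C-9 near it and C-M above it.

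**Figure D4:**
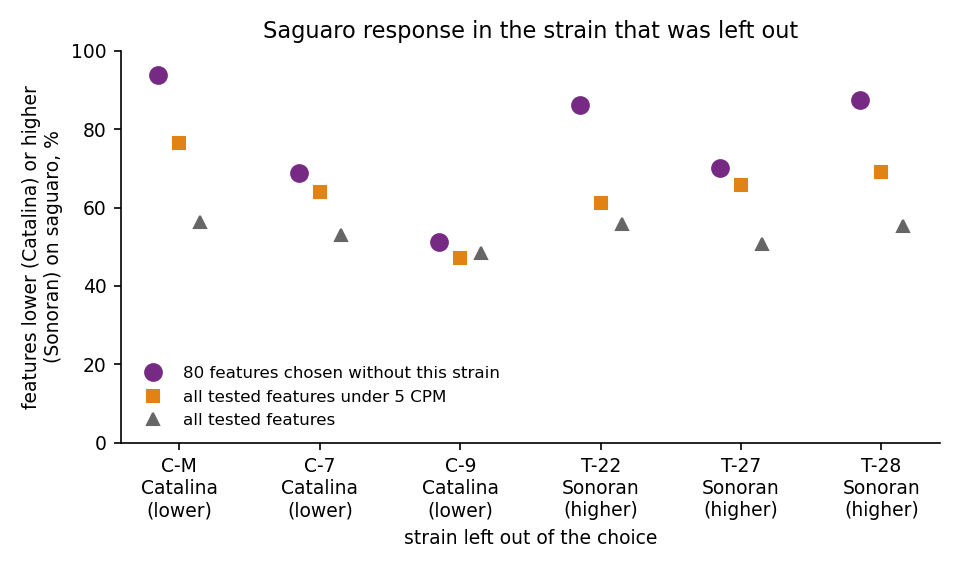
Share of features (vertical axis, %) that were lower on saguaro in a Catalina strain or higher on saguaro in a Sonoran strain, for the strain left out of the choice (horizontal axis). Circles are the 80 features chosen without that strain, squares all tested features under 5 CPM and triangles all tested features, and the circle lies next to the other marks for C-9 and furthest above the triangle for C-M.

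Over the whole table, the share of features with opposite responses differed between level classes. Of 4907 tested features under 5 CPM, 13.6% had d below 0 in all Catalina strains and above 0 in all Sonoran strains, and 0.856% had the mirror pattern, higher on saguaro in all Catalina and lower in all Sonoran strains. The shares were 6.06% and 4.65% at 5 to 50 CPM, 1.16% and 12.4% at 50 to 500 CPM, and 0% and 9.06% among 265 features of 500 CPM or more. Without C-M both patterns ask for signs in 5 strains in place of 6, a looser condition, so a rise in a single share is not read. The shares without it were 14.4% and 2.22% under 5 CPM, 7.47% and 7.43% at 5 to 50 CPM, 2.87% and 15.1% at 50 to 500 CPM, and 0% and 10.6% above that. The excess over the mirror pattern at 5 to 50 CPM was then no longer there. The strains were unequal in this. The median d of all features under 5 CPM was -0.65 in C-M, -0.14 in C-7 and 0.00048 in C-9, and at 50 to 500 CPM it was 0.33, 0.06 and 0.0091, so C-9 differed little between these classes. In T-22, T-27 and T-28 the medians were 0.19, 0.24 and 0.31 under 5 CPM and -0.0044, -0.19 and -0.27 at 50 to 500 CPM. At 500 CPM or more they were 0.04, 0.10 and -0.13 in C-M, C-7 and C-9 and -0.15, -0.32 and -0.71 in T-22, T-27 and T-28. Across the 18 libraries, the mean level of the 80 features had r = -0.72 (rho -0.75) with the share of all features at 0 counts and r = 0.72 (rho 0.70) with the library's factor relative to its total. Without the C-M saguaro library these were -0.73 (rho -0.71) and 0.67 (rho 0.64). Both measures of a pair come from the same library and depend on its depth and composition. The part of these library measures in the opposite response of the 80 features was not tested.

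**Figure D5:**
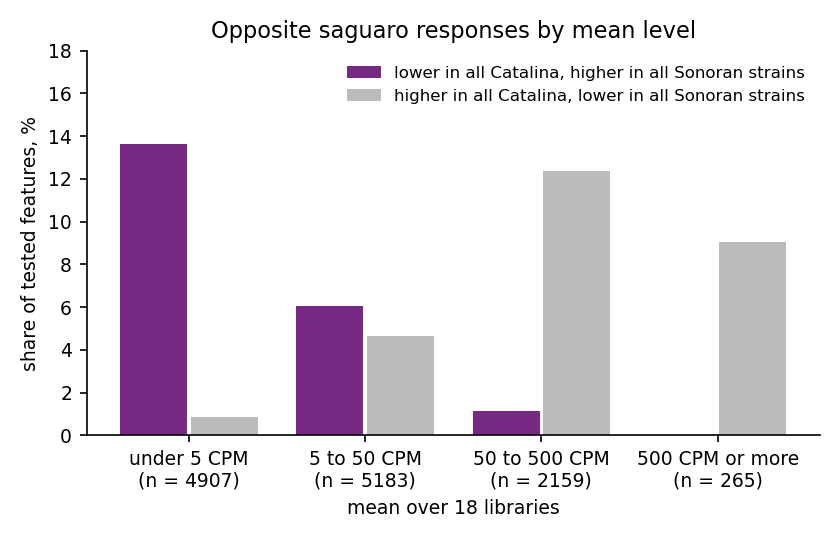
Share of tested features (vertical axis, %) with an opposite saguaro response in the direction of the 80 (purple) and in the mirror direction (grey), by mean level over 18 libraries (horizontal axis, TMM-scaled CPM). The purple share falls from 13.6% to 0% with rising level, and the grey share is 0.856% in the lowest class and 12.4% at 50 to 500 CPM.

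The 80 features came from 80 different assembly components, a component being a group of assembled sequences that can hold copies or versions of a gene. Of the 80, 57 were alone in their component (71.2%, against 57.1% of all tested features) and 23 shared it with other features, between which reads could be divided. Those 23 components held 45 other tested features, of which 4 had the full opposite pattern (8.89%, against 8.05% of all tested) and 25 had a mean d below 0 in Catalina and above 0 in Sonoran (55.6%, against 34.9% of all). Median mean d of these companions was -0.18 in Catalina and 0.23 in Sonoran. Neither share was tested, and companions can hold reads of the same gene as a member.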

How the data were processed

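Levels are whole-number read counts per assembled gene that the authors deposited for 18 libraries. Per the series' design text, the reads were assembled de novo and the sequences of each gene were merged into 1 count. The submitters' processing notes name edgeR. For the counting program, its version and any filter, no statement was found (not given in the sources used here). The table as deposited was processed in Python 3.11.15 and R 4.3.3. The factor of a library is the median ratio of its counts to the row geometric mean over 10912 features above 0 in every library. CPM values use TMM factors. The populations on prickly pear were compared with edgeR 4.0.16 (quasi-likelihood F test, 6 group means, 18 libraries, 12 residual degrees of freedom, filterByExpr), with adjustment over all 12514 tested features. The standard error is the log2 fold change divided by the square root of F. Alternatives used DESeq2 1.42.0 and limma 3.58.1. The fit and the rule were tested on simulated data.

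The 80 features, the comparisons and the grouping by level were chosen with earlier results of these data known. Named features are the 2 with the highest score, the 2 lowest mean d in Catalina, the 2 highest in Sonoran, the 2 largest fold changes each way on prickly pear and the 2 with most counts. No 2 libraries of a group were repeats (smallest chi-square per degree of freedom 26.6). The strain pairs libraries across foods, but the only test compares different strains. Libraries were divided over 2 lanes, per the labels' protocols. Counting limits cover counting error only.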

Additional observations from a re-analysis of the deposited data

Results flagged for a closer look

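Every strain of Catalina moved below 0 and every strain of Sonoran above 0 on saguaro against lab food in each named feature. The rule chose the features for this, so it is no separate finding, and the difference was not tested. The mean Sonoran d minus the mean Catalina d was 2.12 for comp19806_c0, 2.48 for comp36025_c0, 2.81 for comp37292_c1, 2.21 for comp37370_c0, 2.82 for comp37523_c1 and 2.30 for comp33237_c0. It was 1.48 for comp35313_c0, 1.28 for comp23898_c0, 1.5 for comp38520_c1, 1.30 for comp33694_c0, 1.87 for comp39816_c0 and 1.15 for comp32025_c0. On prickly pear against lab food, 0 of the 80 features had opposite signs in all strains of the populations, where 0.519% of all tested features had them with Catalina above 0 and 0.647% with Catalina below. On prickly pear against saguaro it was 1 of the 80, with Catalina above 0, against 0.463% of all.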

How the results depend on the processing

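The signs asked by the rule held for 79 of the 80 features with TMM factors and for 80 with library totals as factors. The added constant cannot change a sign, and leaving out a strain only drops a condition, so those settings say nothing of stability. Which features were chosen depended on the settings. Of the 80, 73 were chosen again with TMM factors and 80 when no abundant feature was dropped, but 16 with library totals as factors, 29 with 1 added, 18 with 32 added, 12 with a prickly pear limit of 0.4, 0 with no limit and 21 to 50 without a strain (21 without C-9). Median d of the 80 was -1.49 in Catalina and 1.43 in Sonoran with 1 added, and -0.38 and 0.38 with 32 added. With library totals as factors it was 0.98 in Sonoran, where the median of all features moved from 0.05 to 0.29 (from -0.06 to -0.26 in Catalina). Without a strain it ran from -0.93 to -0.41 in Catalina and from 0.81 to 0.87 in Sonoran. Of 80 features chosen without T-22, 45 moved its way with 1 added, near the 55.7% of all tested features.

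On prickly pear, the number of the 80 called stayed at 0 with RLE size factors, library totals, DESeq2, no filter and the 6 prickly pear libraries alone, and ran from 0 to 1 without a library. Over all tested features, 5, 5, 33, 5 and 3 were called in these settings, in that order, and 4 to 11 without a library. The median log2 fold change ran from 0.15 to 0.55 without a library. With a replicate block it was 0.27 (the number in the titles, which does not pair strains between populations) or 0.38 (strain as a random block in limma), with 0 called in each, where 4 and 5 of all features were called. Few counts (median of the mean counts 19.9 per library) limit the precision for most of the 80.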

Other observations

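The features with the strongest opposite response lay beyond the prickly pear limit. With no limit, the 80 highest scores ran from 1.75 to 2.68, against 0.679 to 1.45 for the 80 described above, and shared 0 features with them. All of these 80 were higher on prickly pear than the mean of the other foods, by 1.16 to 2.06 on the log2 scale. Of the 601 features with opposite signs outside the limit, 600 were higher on prickly pear. The summed level of the 80 features with no limit averaged, in Catalina, 737 ± 487 CPM on lab food, 267 ± 368 on saguaro and 1277 ± 180 on prickly pear, and in Sonoran 117 ± 30.2, 584 ± 193 and 839 ± 338 CPM (SD, n = 3). Within Catalina on saguaro the sum ran from 4.08 to 688 CPM. This second set was chosen from the same libraries, and its values are a description.

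Opposite signs in the mirror direction, higher on saguaro in all Catalina strains and lower in all Sonoran strains, were found for 584 features of the whole table, against 1046 in the direction described above.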
